A study of Ptychodera flava with 31 samples.

Results

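The first step of larval growth in the acorn worm Ptychodera flava was described here from 4 of the 31 RNA sequencing libraries of a developmental series, the 2 titled 72hpf tornaria and the 2 titled Heider. The tornaria is the planktonic larva of this hemichordate, and 72 hpf means 72 hours post fertilization; Heider is the next named larval stage in the series, and Meschnikoff the one after it. All libraries came from whole wild-type animals, and the labels give no age in hours, food or culture for the named stages. The single library of unfertilized eggs was used to set aside egg-abundant transcripts, and the 2 Meschnikoff libraries were used to ask which changes persisted. The remaining stages, from the 16-32 cell embryo to the adult, are described only where they show what the changed transcripts did at other times.

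Hemichordates are the sister group of echinoderms. Many of them develop indirectly: the embryo forms a transparent larva that swims and feeds with ciliary bands for weeks to months, and only then transforms into a worm with a proboscis, a collar and a trunk. The newly formed tornaria has completed gastrulation and has a through gut, an apical organ and a first ciliary band, and the later named stages differ in size and in how far the ciliary band is folded into lobes. The comparison of the 72 hpf tornaria with Heider thus asks how the RNA of the animal changes between the end of embryonic development and the growing larva.

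The files list 35854 transcript models, each with a length, an estimated count and a TPM (a level per length of transcript, scaled to the same total in every library). None of the 35854 identifiers occurred among the 38920 genes of the RefSeq table, and the files do not pair them with names. The changes are therefore described by model and by groups of models, and no gene, pathway or cell type can be named. Because whole animals were sampled, more cells that carry a transcript and more transcript per cell cannot be told apart.

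Egg-abundant models were set aside first. In all, 744 models had at least 200 CPM (counts scaled by the library total) in the unfertilized egg, where they held 62.2% of all counts. The model just inside this limit had 200.045 CPM in the egg and the one just outside had 199.666 CPM. The 744 models held 14.4% and 13.7% of TPM in tornaria replicates 1 and 2, 12.2% and 12.5% in Heider replicates 1 and 2, and 12.7% and 12.5% in the 2 Meschnikoff libraries. Their median fold change from the 72 hpf tornaria to Heider was -0.53 on the log2 scale, against 0.05 for the other 29917 models tested. Of these 744, 13 were called higher and 210 lower at Heider by the test used below (30% called). Unless stated, they are left out of the calls and groups of models that follow. Counts per library, chi-squares, median changes by scaling, correlations of replicate deviations and the fit itself include them.

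The 6 libraries of the 3 stages had between 13344834 and 17288661 estimated counts. The tornaria libraries held 19917 and 19286 models at 1 TPM or more, the Heider libraries 21933 and 21630, and the Meschnikoff libraries 21092 and 21291. The 2 Heider libraries differed more from each other than the libraries of the neighbouring stages did. Their counts gave a chi-square of 80.5 per degree of freedom, against 12.7 for the tornaria pair and 36.7 for the Meschnikoff pair, and the median absolute difference per model was 0.30 on the log2 scale, against 0.20 and 0.21. The results below are therefore given for each Heider library as well as for their mean.

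From the 72 hpf tornaria to Heider, 2373 models rose and 1951 fell, which was 7.93% and 6.52% of the 29917 tested (14.5% in all). Calls needed a fold change of at least 2 and, in edgeR's quasi-likelihood test fitted to all 31 libraries, an adjusted p (Benjamini-Hochberg) below 0.05. By edgeR's fold change, 1009 models rose by at least 8-fold and 327 fell by as much. Per library, with a pseudocount added to CPM, the median changes were of similar size. On the log2 scale the median called rise was 1.435 in Heider replicate 1 and 1.726 in replicate 2. The median called fall was -1.356 and -1.518. How far low tornaria levels account for the larger number of 8-fold rises was not tested. Among the 2373 rises, 222 models had no count, after rounding, in either tornaria library, against 2388 of all 29917 models tested. Of the 1951 falls, 74 had none in either Heider library, against 1246 of all models tested. Such models were thus not particular to the calls. With DESeq2 size factors in place of TMM scaling the median change over all models moved from 0.03 to 0.16 on the log2 scale, and 65.0% of the calls were rises, against 54.9% with TMM; with upper quartile scaling the median was 0.17 and 66.1% were rises. Each split is relative to the median of its own scaling. The counts were 1188 higher without tornaria replicate 1, 866 higher and 1195 lower without tornaria replicate 2, 1376 higher and 1247 lower without Heider replicate 2, and 950 higher and 839 lower when only the 4 libraries were fitted; whichever tornaria library was left out, 42.0% of the calls were rises.

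**Figure D1:**
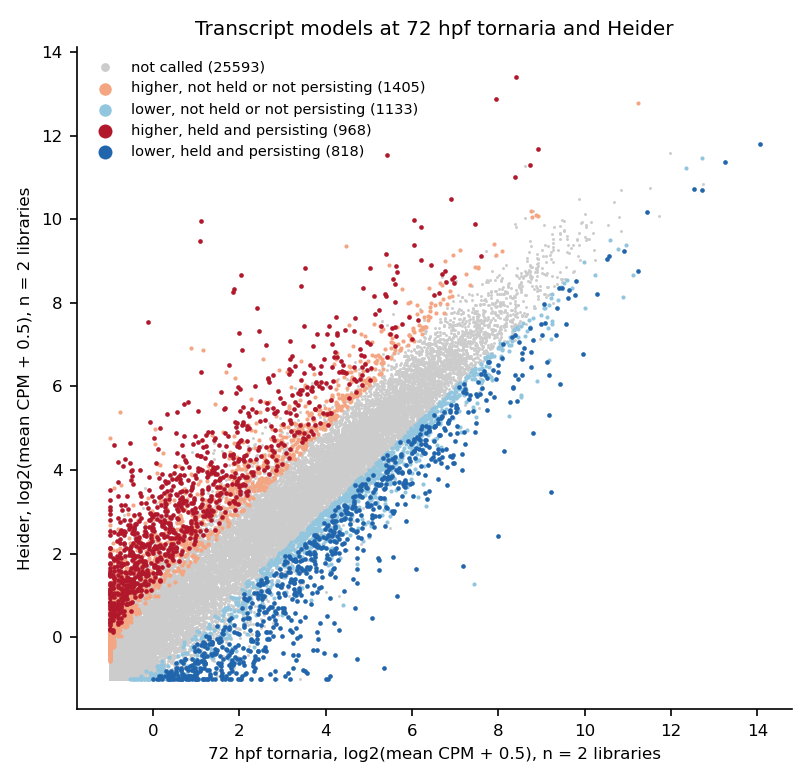
Level of each model outside the egg-abundant ones at the 72 hpf tornaria (x axis) and at Heider (y axis), as log2 of the mean CPM of 2 libraries plus 0.5, with TMM scaling. Dark red (968) and dark blue (818) points are the models that rose or fell in both Heider libraries and persisted at Meschnikoff, pale points the other called models, and grey points those not called; the called rises reach down to models without counts in the tornaria.

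A change was taken to hold in both Heider libraries when each of them lay at least 2-fold past the mean of the tornaria libraries on the log2(CPM + 0.5) scale. Of the 2373 rises, 1491 held in both (62.8%), and of the 1951 falls, 1391 did (71.3%). The failures were unequal between the 2 libraries. Among the 882 rises that did not hold, 559 fell short only in Heider replicate 1, 253 only in replicate 2, and 70 in both. For the 560 falls that did not hold, these numbers were 331, 169 and 60. Heider replicate 2 was at least 4-fold above replicate 1 for 173 of the rising models and at least 4-fold below it for 60, whereas the tornaria libraries lay 4-fold apart for 7. For the falling models Heider replicate 1 was 4-fold above replicate 2 for 21 and 4-fold below it for 1. Among these widely differing called models the second library thus more often lay farther from the tornaria. The calls themselves used both Heider libraries. On models chosen by Meschnikoff against the tornaria, described below, replicate 2 was instead less far along in the rises (median 50.7%, against 67.8% in replicate 1). On the log2(CPM + 0.5) scale, the median called rise was 1.44 in Heider replicate 1 and 1.73 in replicate 2, and the median called fall was -1.36 and -1.52.

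A held change was taken to persist when both Meschnikoff libraries also lay at least 2-fold past the tornaria mean in the same direction. By this rule 968 rises persisted, 64.9% of those that held and 3.24% of all models tested. The persisting falls numbered 818, which was 58.8% of those that held and 2.73% of all models tested. With a pseudocount of 2 CPM there were 487 persisting rises and 555 persisting falls, and with 0.1 CPM there were 1442 and 937. Which direction had more persisting models thus depended on the pseudocount. Among the 523 rises that held but did not persist, 247 fell short in both Meschnikoff libraries, 66 only in replicate 1 and 210 only in replicate 2. Among the 573 such falls, the numbers were 285, 68 and 220. These counts share the tornaria libraries between both steps, so that a tornaria level that was low or high by chance enters both. They were 566 rises and 501 falls without tornaria replicate 2, 621 and 508 when only the libraries of 2 stages were fitted, 487 rises with a pseudocount of 2 CPM, and 2058 rises and 1780 falls when the libraries had only not to overlap, with no fold minimum; 59.9% of all models tested had tornaria and Heider libraries that did not overlap.

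The 968 persisting rises were a set of transcripts with little RNA before Heider. Together they held 0.572% and 0.625% of TPM in the tornaria libraries, 6.04% and 7.27% in the Heider libraries, and 6.39% and 6.37% in the Meschnikoff libraries. The groups did not overlap, as the choice of members fixes. Before the tornaria their share was lower still: as stage means it lay between 0.162% in the egg and 0.315% in the mid gastrula before mesoderm migration, where the highest single library was at 0.428%. Of the 968 models, 452 had a stage mean under 1 TPM at every stage from the egg to the 72 hpf tornaria (46.7%, against 29.4% of all models tested). This window includes the tornaria level that chose the rises, so that part of the excess is fixed by the choice, and the share was much the same among the rises that held but did not persist (46.3%) and those that did not hold in both Heider libraries (45.2%). Of these 452, 415 reached 1 TPM at Spengel and 315 in the adult. Among such models the numbers were 161 and 130 of 242 for rises that held but did not persist. They were 259 and 261 of 399 for rises that did not hold in both. Of all models tested, 75.3% were at 1 TPM or more at Spengel and 77.6% in the adult. This is not a like group, since 63.0% of all models tested were at that level in the tornaria already.

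Most of them were modest in level. The median CPM of the 968 models at Heider was 7.69; 418 had a mean of at least 10 CPM and 82 a mean of at least 100 CPM. The gain in TPM was concentrated: 11 models made up 50% of it, and the 2 largest 21.2%. These models had a median length of 2342 bases (quartiles 1300 and 3705), against 1803 (987 and 3038) for all models tested. The other rises were long too, with medians of 2247 bases where they held but did not persist and 2100.5 where they did not hold. Longer models collect more counts at a given TPM, and the part of length in the calls was not tested.

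**Figure D2:**
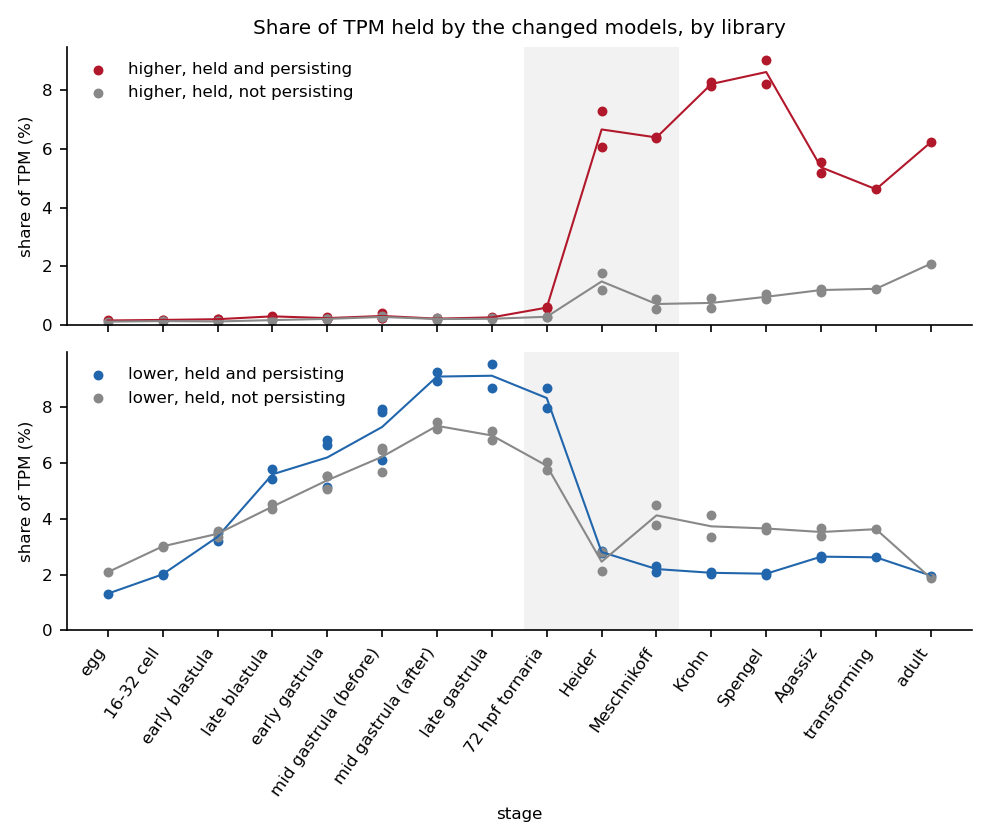
Share of TPM (percent, y axis) held by the called models that held in both Heider libraries, in each of the 31 libraries (points) along the 16 stages (x axis), with lines through the stage means; the upper panel shows rises and the lower panel falls, coloured where they persisted at Meschnikoff and grey where they did not. The grey band marks the 3 stages that chose the models: the persisting rises went from 0.598% to 6.65% of TPM and reached 8.60% at Spengel, and the persisting falls went from 8.32% to 2.81%.

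The 2 persisting models with the largest gain in TPM carry neighbouring identifiers. TCONS_00052966, a model of 1962 bases, had 165.5 and 208.8 TPM in the tornaria libraries, 6158 and 8813 TPM in the Heider libraries, and 2343 and 1945 TPM in the Meschnikoff libraries. Every Heider library thus lay above every Meschnikoff library, and all of these above the tornaria. Its mean of 7485 ± 1877 TPM at Heider (SD, n = 2) was 40.0 times that of the tornaria, 187 ± 30.7 TPM (SD, n = 2), a change of 4.94 on the log2 scale (SE 0.90; adjusted p = 0.000904 by edgeR).

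TCONS_00052965, of 3540 bases, followed the same course. It had 120.5 and 149.4 TPM in the tornaria, 4403 and 6900 TPM at Heider, and 1809 and 1450 TPM at Meschnikoff, a change of 4.997 on the log2 scale from tornaria to Heider (SE 0.86; adjusted p = 0.000614 by edgeR). The ratio of TPM between the former and the latter was 1.39 in the tornaria, 1.32 at Heider and 1.32 at Meschnikoff, and because reads can be shared between overlapping or near-identical models, how much each contributed is uncertain. Both were at 0 counts in the egg and at 2.99 ± 1.76 and 1.93 ± 0.99 TPM in the late gastrula (SD, n = 2 each). After the lower level at Meschnikoff they were at 7193 ± 1107 and 5133 ± 845 TPM at Spengel (SD, n = 2 each), and at 3173 and 1385 TPM in the 1 adult library. The step down from Heider to Meschnikoff did not pass the test in either (edgeR adjusted p = 0.271 and 0.253).

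The 818 persisting falls held 7.97% and 8.67% of TPM in the tornaria libraries, 2.85% and 2.77% in the Heider libraries, and 2.08% and 2.32% in the Meschnikoff libraries, again without overlap, as the choice of members fixes. Their share was 1.32% in the egg and 2.01% at the 16-32 cell stage, 5.59% in the late blastula, and 9.12% in the late gastrula. Setting aside the egg-abundant models lowers the egg share of all that remain: the models tested together held 34.9% of TPM in the egg and 83.7% in the late gastrula. At the median they stood at 0.483 TPM in the egg, 15.1 TPM in the late gastrula, 14.1 TPM in the tornaria and 3.72 TPM at Heider, while the median over all models tested went from 0.350 TPM in the egg to 3.02 TPM in the tornaria and 4.61 TPM at Heider. The share of them with a mean of at least 1 TPM went from 95.0% in the tornaria to 68.1% at Heider and 61.9% at Meschnikoff, while that of all models tested went from 63.0% to 70.5% and 68.2%. Of the 818, 44 had no count in either Heider library, against 1246 of all 29917 models tested. The loss was spread over more models than the gain, with 21 models making up 50% of it and the 2 largest 11.6%. Their median length, 1662 bases, was near that of all models tested.

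TCONS_00031421, a short model of 282 bases, had the largest persisting loss in TPM. It stood at 4409 and 4967 TPM in the tornaria libraries, at 1424 and 1170 TPM in the Heider libraries, and at 416 and 107 TPM in the Meschnikoff libraries. No library of a stage overlapped those of another, and the level went down at each step. The change from tornaria to Heider was -2.13 on the log2 scale (SE 0.52; adjusted p = 0.00641 by edgeR), and adjusted p was 0.0588 without Heider replicate 2 and 0.0671 when only the 3 stages were fitted. The model was nearly absent from the egg, at 1.79 TPM, reached 2447 ± 154 TPM in the late blastula (SD, n = 2), and was at 39.6 ± 34.8 TPM at Krohn and 2.78 ± 1.25 TPM at Agassiz (SD, n = 2 each). Its effective length, by which counts are divided to give TPM, was 93.9 to 106 bases in the 6 libraries, and by counts it stood at 337 ± 45.2 CPM in the tornaria (SD, n = 2).

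TCONS_00012347, of 2235 bases, had 6778 ± 650 CPM in the tornaria (SD, n = 2). Its levels were 4246 and 4639 TPM in the tornaria, 789 and 2077 TPM at Heider, and 292 and 135 TPM at Meschnikoff. The stages did not overlap, but the Heider libraries lay far apart. The change was -2.02 on the log2 scale (SE 0.60; adjusted p = 0.0217 by edgeR). The call was lost without Heider replicate 1 (adjusted p = 0.162), without tornaria replicate 1 (0.0538) or 2 (0.0918), and when only the 4 libraries (0.0878) or only the 3 stages (0.0696) were fitted. This model appeared later in the embryo than the former, at 11.8 ± 11.7 TPM in the early gastrula (SD, n = 3) and 3939 ± 181 TPM in the mid gastrula after mesoderm migration (SD, n = 2), and it was at 63.2 ± 1.23 TPM at Krohn (SD, n = 2).

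**Figure D3:**
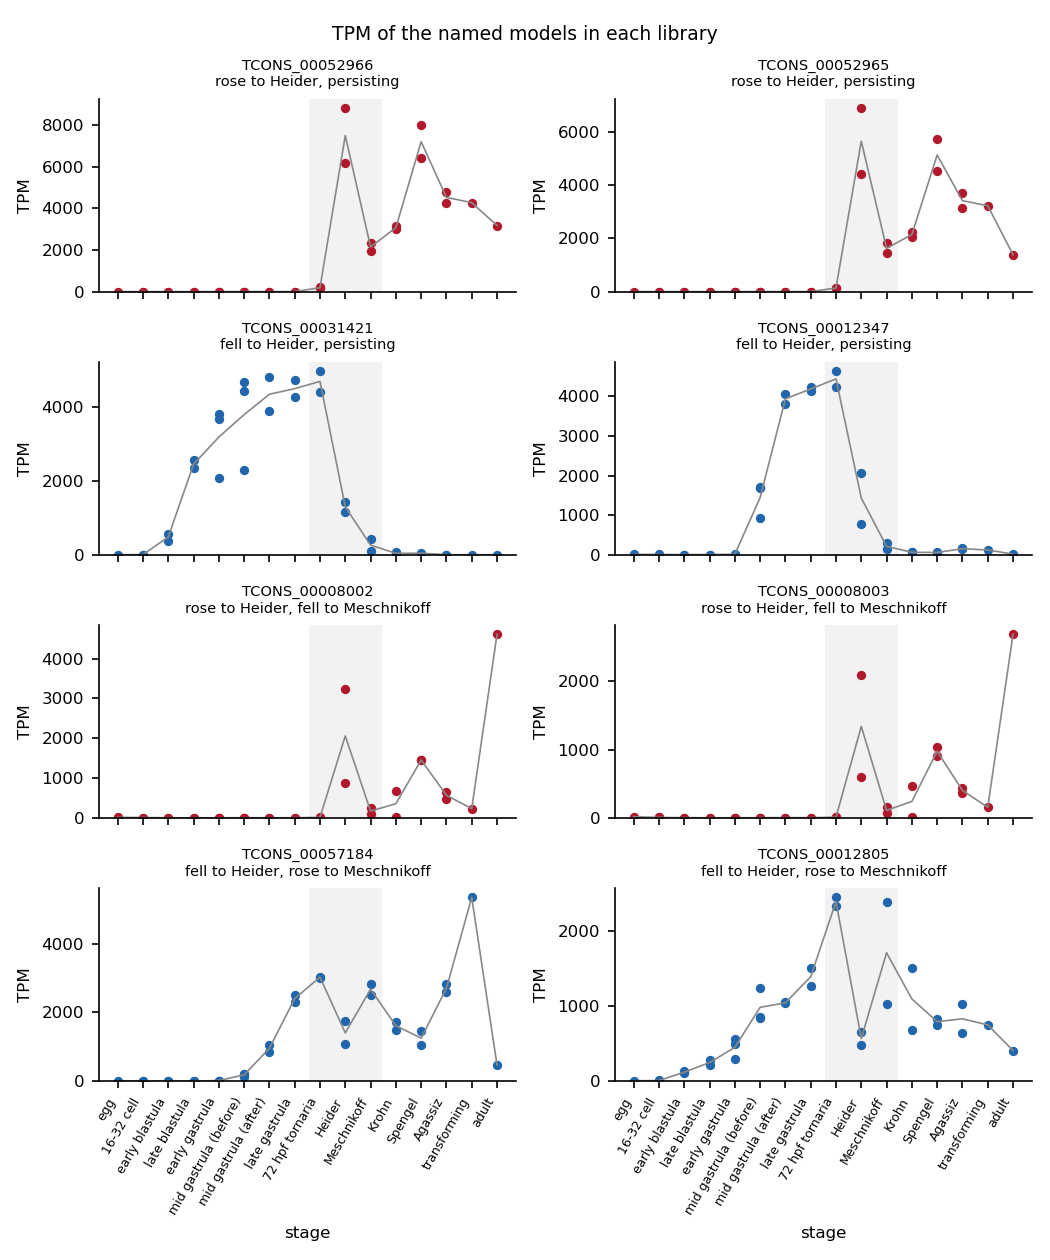
TPM (y axis, linear, from 0) of the 8 named models in each of the 31 libraries (points) along the 16 stages (x axis), with lines through the stage means; red points mark models that rose to Heider and blue points those that fell. The grey band marks the 72 hpf tornaria, Heider and Meschnikoff: in the upper 4 panels Heider is separated from the tornaria in both libraries, and in the lower 4 the level turns back between Heider and Meschnikoff.

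Levels from Krohn to the adult were not among those compared to choose the models, and they kept the 2 sets apart. These libraries did enter the fit to all 31 libraries, through its filter, scaling and estimate of spread, so they are not independent of the calls. The same holds for the late gastrula. Compared with it, 1182 of the 1491 rises that held in both Heider libraries were at least 2-fold higher at Krohn (79.3%, against 21.6% of all models tested), and 5 were 2-fold lower. At Spengel 1245 were higher (83.5%, against 24.6%), at Agassiz 1083 (72.6%, against 25.5%), in transforming larvae 999 (67.0%, against 26.6%) and in the adult 941 (63.1%, against 33.7%). The median difference from the late gastrula was 2.33 on the log2 scale at Krohn, 2.48 at Spengel, 1.91 at Agassiz, 1.77 in transforming larvae and 1.88 in the adult, against 0.05 to 0.17 over all models tested. The persisting rises, chosen by their level at Meschnikoff, the stage before Krohn, weighed on these values. At Krohn 896 of these 968 were 2-fold higher (92.6%), against 286 of the 523 that did not persist (54.7%). In the adult the shares were 66.1% and 57.6%. No test was made, since the models were chosen and the transforming larva and the adult have 1 library each.

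The falls were the reverse of this. Those that persisted and those that did not had medians of 15.1 and 26.8 TPM in the late gastrula, against 2.49 TPM over all models tested. Models near 0 can hardly lie 2-fold lower, which limits the comparison with all models. Of the 1391 falls that held, 1053 were at least 2-fold lower at Krohn than in the late gastrula (75.7%, against 13% of all models tested), 1127 at Spengel (81.0%, against 16.4%), 1089 at Agassiz (78.3%, against 18.3%), 1038 in the transforming larva (74.6%, against 16.7%) and 999 in the adult (71.8%, against 22.3%). The falls that did not persist at Meschnikoff were mostly below their late gastrula level too. Among these 573 models, 361 were 2-fold lower at Krohn than in the late gastrula and 450 in the adult. Their medians, 12.5 TPM at Krohn and 5.44 TPM in the adult, were still above those of all models tested, 4.607 and 4.685 TPM.

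The stage of the highest level was taken over the 13 stages other than the tornaria, Heider and Meschnikoff. Of these, the egg had been used to set models aside. The persisting rises had their highest level mainly in later larvae, and the falls mainly in embryos. The highest stage mean was at Krohn or Spengel for 739 of the 1491 rises (49.6%, against 20.1% of all models tested), in the adult for 360 (24.1%, against 23.1%), and at any stage from the egg to the late gastrula for 68 (4.56%, against 37.0%). Among the persisting rises, the highest stage mean was at Krohn or Spengel for 571 of 968 (59%) and in the adult for 194 (20%). Among those that did not persist, it was at Krohn or Spengel for 168 of 523 (32.1%) and in the adult for 166 (31.7%). For the falls it was at a stage from the egg to the late gastrula in 1098 of 1391 (78.9%), most often in the late gastrula itself (302, or 21.7%, against 4.61% of all models tested) and in the mid gastrula after mesoderm migration (218, or 15.7%, against 3.11%). At Krohn or Spengel it was in 57 (4.10%).

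**Figure D4:**
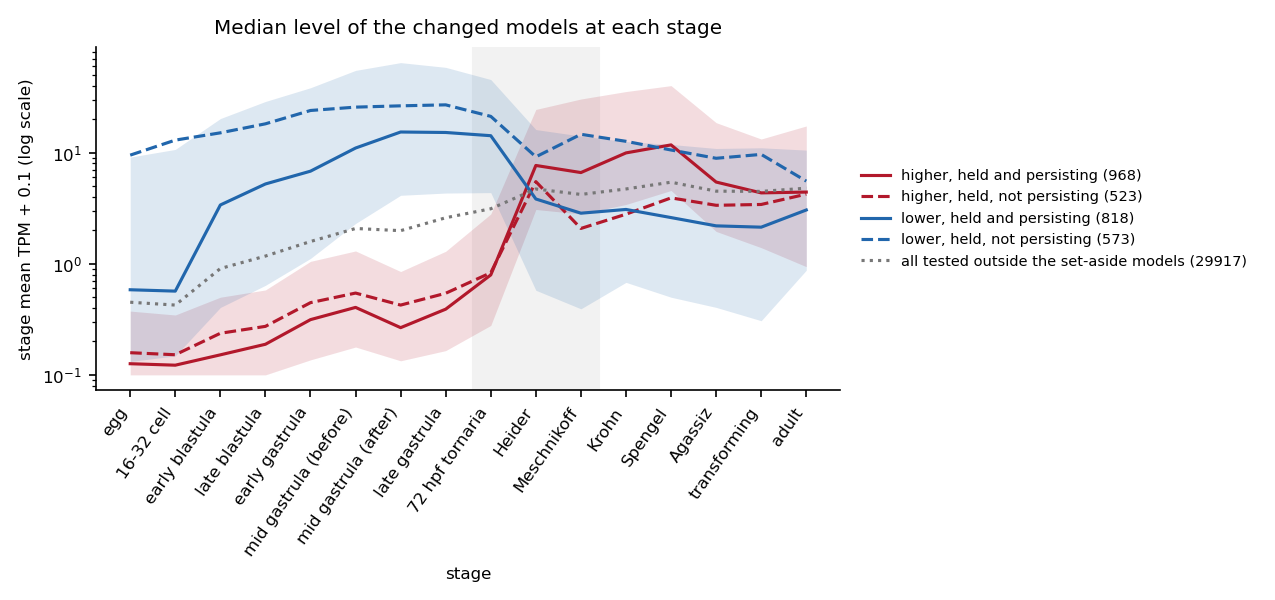
Median over models of the stage mean TPM plus 0.1 (y axis, log scale) along the 16 stages (x axis) for the rises (red) and falls (blue) that held in both Heider libraries, solid where they persisted at Meschnikoff and dashed where they did not, with all models tested as a dotted grey line; shaded areas are the quartiles of the persisting sets. The grey band marks the 3 stages that chose the models: the persisting rises and falls cross between the 72 hpf tornaria (0.693 and 14.1 TPM) and Heider (7.56 and 3.72 TPM).

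Among the falls, those that did not persist stood higher in the egg than the persisting ones. The 573 falls that held but did not persist had a median of 9.39 TPM in the egg, with 70.7% of them at 1 TPM or more. The share at 1 TPM or more was much the same among the falls that did not hold in both Heider libraries (70.2%), and it was 42.7% among the persisting falls, close to the 42.2% of all models tested. The 573 falls were shallower, with a median log2 fold change of -1.53 at Heider against -2.27 for the persisting falls, and stood at a median of 21.1 TPM in the tornaria, 9.06 TPM at Heider and 14.5 TPM at Meschnikoff. The 523 rises that held but did not persist stood at a median of 0.730 TPM in the tornaria, against 0.693 TPM for the persisting ones. They were at 5.38 TPM at Heider and 1.98 TPM at Meschnikoff, and at 3.81 TPM at Spengel and 4.13 TPM in the adult. As persistence chose these sets, their levels at Meschnikoff are a description.

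Between Heider and Meschnikoff fewer models were called, and the calls depended on single libraries. edgeR's test on all libraries called 718 models higher (2.4%) and 423 lower (1.41%) at Meschnikoff, 3.81% in all. Fitting the libraries of the 3 stages alone called 6 higher and 3 lower, and fitting the 4 libraries of Heider and Meschnikoff alone called 0 in each direction by edgeR, with 3705 models at an unadjusted p under 0.05, while DESeq2's Wald test on all libraries called 915 and 619 and limma's voom with weights per stage 793 and 386. The counts were 1611 higher and 876 lower without Heider replicate 1, 76 and 46 without Heider replicate 2, 181 lower without Meschnikoff replicate 1, and 126 and 21 without Meschnikoff replicate 2.

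Among the models called in opposite directions at the 2 steps, the 2 falls and 2 rises with the largest change in TPM from Heider to Meschnikoff are described. TCONS_00008002 and TCONS_00008003, short models of 546 and 597 bases with neighbouring identifiers, rose to Heider and fell again. TCONS_00008002 had 18.5 and 10.4 TPM in the tornaria, 886 and 3231 TPM at Heider, and 251 and 95.5 TPM at Meschnikoff. Its fall from Heider to Meschnikoff was -3.35 on the log2 scale (SE 0.82; adjusted p = 0.0244 by edgeR). This call was lost without Heider replicate 2 (adjusted p = 0.369), without Meschnikoff replicate 1 (0.0524) or 2 (0.262), and when only the libraries of Heider and Meschnikoff were fitted (0.276). TCONS_00008003 had 12.3 and 9.32 TPM, then 593 and 2089 TPM, then 156 and 65.8 TPM at the 3 stages. Both stayed above the tornaria at Meschnikoff, and so count among the persisting rises. They varied between the Krohn libraries too, at 357 ± 469 and 241 ± 316 TPM (SD, n = 2 each), and had their highest level in the 1 adult library, at 4614 and 2691 TPM.

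TCONS_00057184, of 330 bases, and TCONS_00012805, of 1457 bases, fell to Heider and rose again. TCONS_00057184 had 3039 and 3011 TPM in the tornaria, 1736 and 1068 TPM at Heider, and 2519 and 2827 TPM at Meschnikoff. Its rise from Heider was 1.13 on the log2 scale (SE 0.24; adjusted p = 0.0148 by edgeR), with adjusted p = 0.259 without Heider replicate 2, 0.115 without Meschnikoff replicate 2 and 0.276 when only the libraries of both stages were fitted. TCONS_00012805 had 2446 and 2334 TPM in the tornaria, 477 and 658 TPM at Heider, and 1032 and 2384 TPM at Meschnikoff. Its rise from Heider was 1.76 on the log2 scale (SE 0.39; adjusted p = 0.0152 by edgeR), and adjusted p was 0.0581 without Heider replicate 1, 0.0981 without Heider replicate 2, 0.256 without Meschnikoff replicate 2 and 0.276 with only these libraries. The 2 stages did not overlap in either model, but no call of the 4 models at this step held in every fit.

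The place of each Heider library between its neighbours was measured on models chosen by comparing Meschnikoff with the tornaria. The Heider libraries entered this choice only through the filter, scaling and spread of the fit. Of the 29917 models tested, 2647 were higher (8.85%) and 1899 lower (6.35%) at Meschnikoff than at the 72 hpf tornaria. On a scale of 0% at the mean log2 level of the tornaria and 100% at that of Meschnikoff, the median rising model was at 67.8% in Heider replicate 1 and at 50.7% in replicate 2. The median falling model was at 82.8% and 81.7%. In replicate 2 the rising models were more spread out, with quartiles of 10.4% and 96.1% against 40.2% and 94.6% in replicate 1. In both libraries the falls were thus farther along than the rises at the median, while the libraries differed between themselves mainly in the rises. No test was made, since the models are not replicates and there are 2 Heider libraries, and this measure was chosen after earlier values had been seen.

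**Figure D5:**
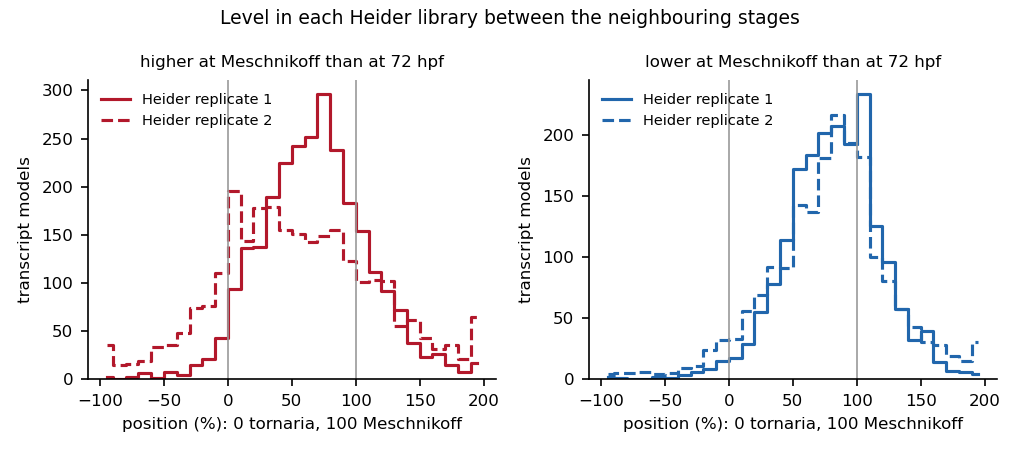
Position of each model in Heider replicates 1 (solid) and 2 (dashed) between its mean log2 level in the 72 hpf tornaria (0%) and at Meschnikoff (100%), as numbers of models (y axis) in bins of 10% (x axis), with models beyond the ends counted in the last bins. Left, the 2647 models higher at Meschnikoff than at the tornaria, with medians of 67.8% and 50.7%; right, the 1899 lower ones, with medians of 82.8% and 81.7%.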

How the data were processed

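Whole-animal, polyA-selected, strand-specific libraries were deposited as 1 table per library, per the labels' protocols. The deposited values are estimated counts (expected counts, fractional), TPM as scaled by the authors, and model lengths, per the file headers; kallisto and edgeR are named in the submitters' processing notes, without versions; genome build and model source: not given in the sources used here. The labels call libraries of a stage biological replicates but name no parents or cultures. The p-values thus reflect only the spread between libraries of a stage, which may be technical. In the main fit this spread was estimated over all 31 libraries. The Heider libraries, which differed more from each other than those of the neighbouring stages, had no spread of their own in it.

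Estimated counts were rounded, then tested with edgeR 4.0.16 (R 4.3.3): filterByExpr by stage (30661 of 35854 models kept, all 744 egg-abundant models among them), TMM scaling, and quasi-likelihood with trended dispersion, 1 coefficient per stage over all 31 libraries (15 residual degrees of freedom). Models were called at Benjamini-Hochberg adjusted p under 0.05 over all models tested and 2-fold, and egg-abundant ones removed afterwards. CPM is TMM-scaled, with a pseudocount of 0.5 for fold changes per library; the egg limit of 200 CPM used library totals. Levels are means with the SD between libraries. On simulated counts for 30101 models with 200 changed between the tornaria and Heider, the test called 20.0% of the 2-fold and 75.0% of the 4-fold changes, and 1.04% of calls were false. The changed models all had more than 2 CPM in the tornaria, so these shares do not cover lower ones. A true 2-fold change was also missed whenever its estimate fell under the 2-fold limit. The simulation gave each model the same spread at all stages, unlike the real libraries. DESeq2 1.42.0 and limma 3.58.1 were alternatives, and summaries used Python 3.11.15 and pandas 2.3.3.

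The stages, tests, limits and alternatives were chosen with earlier results of these data known. Models were named by a rule: the 2 largest gains and the 2 largest losses in TPM among held and persisting changes, and the 2 largest falls and rises from Heider to Meschnikoff among held changes called in the opposite direction at that step, without overlap of the libraries. The comparisons with the late gastrula, the stage of the highest level, the lengths and the position of the Heider libraries were added after values had been seen.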

Additional observations from a re-analysis of the deposited data

How the results depend on the processing

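Counts of models were recomputed under each alternative: higher and lower at Heider, higher and lower among held and persisting changes, and higher and lower at Meschnikoff than at Heider (2373, 1951, 968, 818, 718 and 423 as reported). DESeq2 size factors, upper quartile scaling, no filter, the DESeq2 Wald test, voom with weights per stage and egg limits of 50 CPM or none kept all 6 within 1.5 times. Adjusted p alone gave 3462 lower at Heider. Fitting the 3 stages alone gave 6 and 3 for Meschnikoff over Heider. Fitting only the 2 stages compared gave 950, 839, 621, 508, 0 and 0. Without a fold minimum per library 2058 and 1780 changes held and persisted. A pseudocount of 2 CPM left 487 rises and 555 falls, and 0.1 CPM gave 1442 and 937. Leaving out 1 library at a time, the 6 counts ranged from 866 to 2231, 1195 to 2198, 566 to 1142, 501 to 1019, 76 to 1611 and 21 to 876.

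Replicate numbers are shared between stages, but the labels do not say that they mark a shared culture. Deviations of same-numbered libraries correlated at 0.01 between tornaria and Heider and at 0.17 between Heider and Meschnikoff, over models. With a block for the replicate number, fitting all libraries gave 2747 higher and 2198 lower at Heider, and the fit on the 3 stages alone gave 1234, 1049, 0 and 0 (Heider over tornaria, then Meschnikoff over Heider; by edgeR, with 4135 models at an unadjusted p under 0.05 in the second comparison).

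The cause of these shifts was not tested. The smaller fits had fewer residual degrees of freedom (3 for the 3 stages and 2 with the block, against 15). No named model changed direction in any fit. With 2 libraries a stage, the 2 Heider libraries apart from each other limit every count that involves Heider, and models near 1 TPM rest on few counts.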
